A study of Mus musculus with 11 samples.

Results

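The transcriptomes of CD4+ T cells from the kidney were compared between 5 libraries labelled CD4IKK1 (genotype IKK1 knockout) and 3 libraries labelled CD4NIK (genotype NIK knockout). These are 8 of the 11 libraries of the study, chosen by the genotype in the sample labels, and the other 3 came from CD4cre control mice (genotype WT). CD4IKK1 mice carry a floxed Chuk gene and CD4NIK mice a floxed Map3k14 gene, and in both a Cre recombinase driven by the CD4 promoter removes the floxed part in cells that have used this promoter. All groups were male mice on a C57BL/6 background, 8 to 12 weeks old, sacrificed on day 2 after ischemia-reperfusion injury (IRI) with 45 min of ischemia of both kidneys, so no group is without injury. Each library came from 1 mouse, from CD4+ cells enriched with magnetic beads and then sorted, with a small amount of RNA that was amplified by a SMARTer kit before sequencing. The direct contrast asks how the renal CD4+ T cell transcriptome differs between loss of the kinase IKK1 and loss of the kinase that activates it.

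NFκB transcription factors are held inactive in resting cells and are released by a canonical or a non-canonical route. In the canonical route, a complex of IKK2 (Ikbkb), IKK1 (Chuk) and the scaffold NEMO (Ikbkg) marks the inhibitor IκBα (Nfkbia) for destruction, which frees dimers of RelA (Rela), c-Rel (Rel) and p50 (Nfkb1). In the non-canonical route, receptors of the TNF family stabilize NIK (Map3k14), NIK activates IKK1, and IKK1 triggers the processing of p100 (Nfkb2) to p52, which acts with RelB (Relb). In T cells these routes take part in activation, survival and the differentiation into helper subsets, among them Th1 cells that make interferon gamma and Th17 cells that make interleukin 17A.

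The libraries differed first in how much T cell RNA they held. Levels are given as CPM (counts scaled to a common library size, after adjusting the sizes by edgeR's TMM method), and replicates are listed in the order of their labels. The rounded estimated counts summed to between 16040679 and 21162436 in the CD4IKK1 libraries and to between 15751468 and 21276693 in the CD4NIK libraries, so that 3 counts, used as the limit of detection, are between 0.141 and 0.191 CPM. Counts of the T cell receptor constant regions (the sum of Trac, Trbc1 and Trbc2) were 41, 868, 11413, 5277 and 5644 in the CD4IKK1 libraries and 60124, 111648 and 90324 in the CD4NIK libraries. The 3 CD4cre libraries lay between with 35820, 22741 and 12558 counts, and the groups did not overlap. CD4IKK1 replicate 1 thus held almost no T cell receptor RNA (0.000256% of its counts, exact binomial 95% confidence interval 0.000183% to 0.000347%), against 0.573% in CD4NIK replicate 3 (0.57% to 0.577%). Counting error is all that such intervals and the limit of detection cover, because reads of amplified RNA were not traced to single molecules. T cell receptor RNA was lowest in CD4IKK1 replicates 1 and 2, and most list counts are given with and without them. In bulk samples, fewer cells of a type and less RNA per cell cannot be told apart, which holds for every T cell gene described here. Across the 16546 genes tested, Spearman's rho between libraries had a median of 0.945 for the 3 pairs of CD4NIK libraries, 0.916 for the 10 pairs of CD4IKK1 libraries and 0.8 for the 15 pairs across the groups.

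The transcript levels of the targeted genes did not mark the knockouts: Chuk overlapped between the groups, and Map3k14 was higher in the libraries labelled as its knockout. The CD4cre libraries had 16.6, 33.2 and 16.3 CPM of Chuk and 19.4, 19.6 and 14.7 CPM of Map3k14. Chuk (chr19:44061769-44095935 on GRCm39) had 16.7, 21.3, 22.3, 15.3 and 26.5 CPM in the libraries labelled CD4IKK1 and 23.1, 39.7 and 37.4 CPM in those labelled CD4NIK. The ranges overlapped, and the log2 fold change of CD4IKK1 relative to CD4NIK was −0.71 (standard error 0.30) with an FDR of 0.0795 in edgeR's test. Map3k14 (chr11:103110577-103158298 on GRCm39) had 1.87, 4.92, 6.16, 9.24 and 7.66 CPM in the libraries labelled CD4IKK1 and 12.8, 30.8 and 23.8 CPM in those labelled CD4NIK. Each library labelled CD4NIK was above each library labelled CD4IKK1, and the log2 fold change was −1.91 ± 0.44 (standard error) at an FDR of 0.00418. The gene that the CD4NIK label names as knocked out was thus higher in the libraries with that label. On a scale set by T cell markers (described below), Map3k14 gave a log2 fold change of 3.75 (FDR 0.042). That scale moved the median of all genes to 6.67, so the sign follows from the scale, and Map3k14 lay below this median. Since all transcripts of a gene are summed, a shortened transcript counts like a whole one, and the deletion itself was not examined. The group names are used below as the labels give them.

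The contrast of the libraries labelled CD4IKK1 and CD4NIK was wide and unequal in its directions. Of 16546 genes tested, 3068 (18.5%) were lower and 2444 (14.8%) were higher in the libraries labelled CD4IKK1, at a threshold of an edgeR FDR below 0.05 together with a difference over 2-fold. All log2 fold changes below are CD4IKK1 relative to CD4NIK, the spread is estimated over all 11 libraries, and "lower", "higher" or "passed" without further words refers to this threshold. Counts in the gene lists below are to be read against the shares over all genes, 18.5% lower and 14.8% higher. The genes lower in CD4IKK1 had a median log2 fold change of −2.53, and 738 of them differed more than 16-fold. The genes higher in CD4IKK1 had a median of 1.47, and 48 of them differed more than 16-fold. Of 750 higher genes with a mean of 100 CPM or more in CD4IKK1 libraries, 746 had a log2 fold change under 2, whereas 476 of 755 lower genes with such a mean in CD4NIK libraries were under −2. The lower genes were 55.7% of those called, but 44.5% with upper-quartile factors, with which the median log2 fold change of all genes was 0.30, against 0.06 with TMM. The CD4cre mean lay between the group means for 2858 (93.2%) of the lower and 2283 (93.4%) of the higher genes. In 4038 genes (24.4%) all CD4IKK1 libraries were under all CD4NIK libraries, and in 3432 (20.7%) all were over them. Without CD4IKK1 replicates 1 and 2, 2770 of 16190 genes (17.1%) were lower and 2111 (13.0%) were higher. Of the genes lower with all libraries, 2585 (84.3%) stayed lower, and of those higher, 1992 (81.5%) stayed higher. Without CD4NIK replicate 3, the higher genes numbered 1720 and the lower ones 2396.

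**Figure D1:**
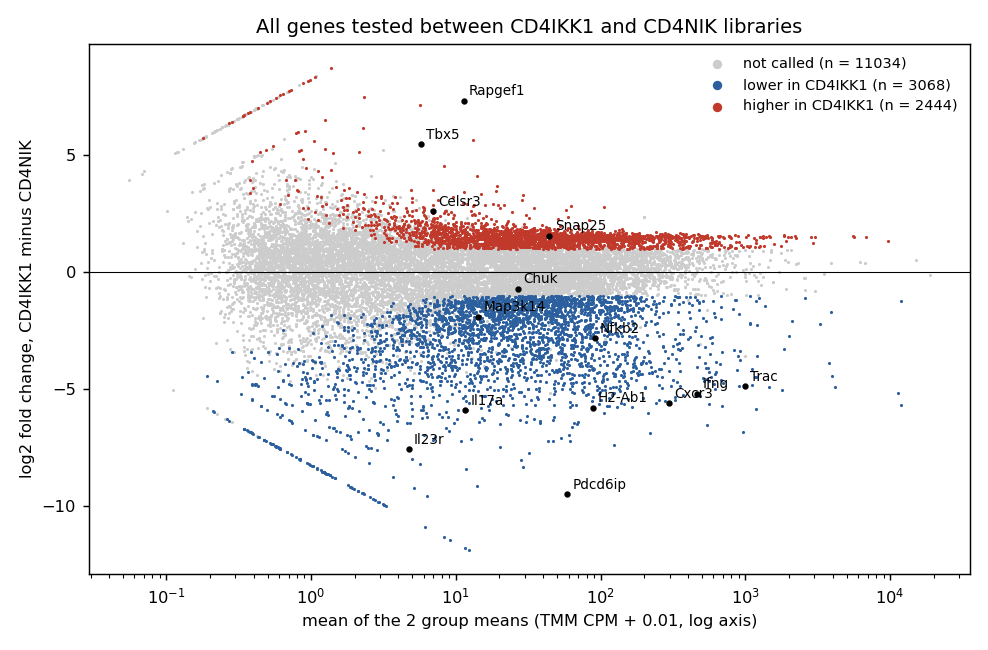
Log2 fold change of CD4IKK1 relative to CD4NIK (y axis) against the mean of both group means in TMM CPM (x axis, log scale) for the 16546 genes tested, with 1 point per gene. The 3068 lower genes (blue) reach far below −5, while most of the 2444 higher genes (red) form a band between 1 and 2, and the diagonal lines at low level are genes with 0 counts in 1 of the groups.

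T cell receptor and CD3 genes were lower in libraries labelled CD4IKK1. All 12 of 12 genes of this list were lower in CD4IKK1 (median log2 fold change −4.06, against 0.06 over all genes tested), and all 12 stayed lower without CD4IKK1 replicates 1 and 2 (median −3.41). Trac, the constant region of the T cell receptor alpha chain, had 0.0646, 11.9, 136, 66.9 and 108 CPM in CD4IKK1 and 1282, 2003 and 2471 CPM in CD4NIK libraries. The log2 fold change of Trac was −4.89 ± 1.25 (standard error), with an FDR of 0.0112. Cd3e, a CD3 chain that carries the receptor signal, had 0.258, 1.57, 24.9, 19.1 and 25.9 CPM in CD4IKK1 and 415, 582 and 906 CPM in CD4NIK libraries (−5.46 ± 1.10, FDR 0.00334). In both genes the CD4IKK1 libraries differed widely among themselves, yet none reached the lowest CD4NIK library. Cd4, the coreceptor used for the sort, had 2.07, 7.22, 68.9, 18.8 and 24.1 CPM in CD4IKK1 and 365, 382 and 316 CPM in CD4NIK libraries (log2 fold change −3.87, FDR 0.00488). The costimulatory receptor Cd28 was lower by 4.95 on the log2 scale (FDR 0.00364). Reads of the near-identical Trbc1 and Trbc2 were divided between them by the counting, so their single values are uncertain (log2 fold changes −4.11 and −4.17). The call of Trbc1 was lost without CD4NIK replicate 2 (FDR 0.0583) or 3 (FDR 0.0775), and that of Cd3d (−3.66, FDR 0.0159) without the same replicates (FDR 0.05004 and 0.0505).

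Genes that pass on the T cell receptor signal moved the same way. Of 28 tested, 24 were lower and none higher (median log2 fold change −3.41), and without CD4IKK1 replicates 1 and 2 there were 26 lower (median −2.86). Lck, the kinase that phosphorylates the CD3 chains, had 1.94, 40.3, 112, 80.8 and 32.3 CPM in CD4IKK1 and 1523, 1203 and 1204 CPM in CD4NIK libraries (log2 fold change −4.61, standard error 0.88, FDR 0.00249). Fyn, a related kinase that is also used in the brain, differed less in size but more evenly, with 37, 53.6, 43.3, 39.5 and 45.9 CPM in CD4IKK1 and 246, 147 and 169 CPM in CD4NIK libraries (log2 fold change −2.09, standard error 0.19, FDR 3.11e-05). Unlike Lck, Fyn was level across the 5 CD4IKK1 libraries. Zap70, which binds the phosphorylated CD3 chains, had a log2 fold change of −2.31 and did not pass (FDR 0.0539), but passed without CD4IKK1 replicate 1 (−2.0003, FDR 0.00696) or replicate 3 (−2.996, FDR 0.0156).

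**Figure D2:**
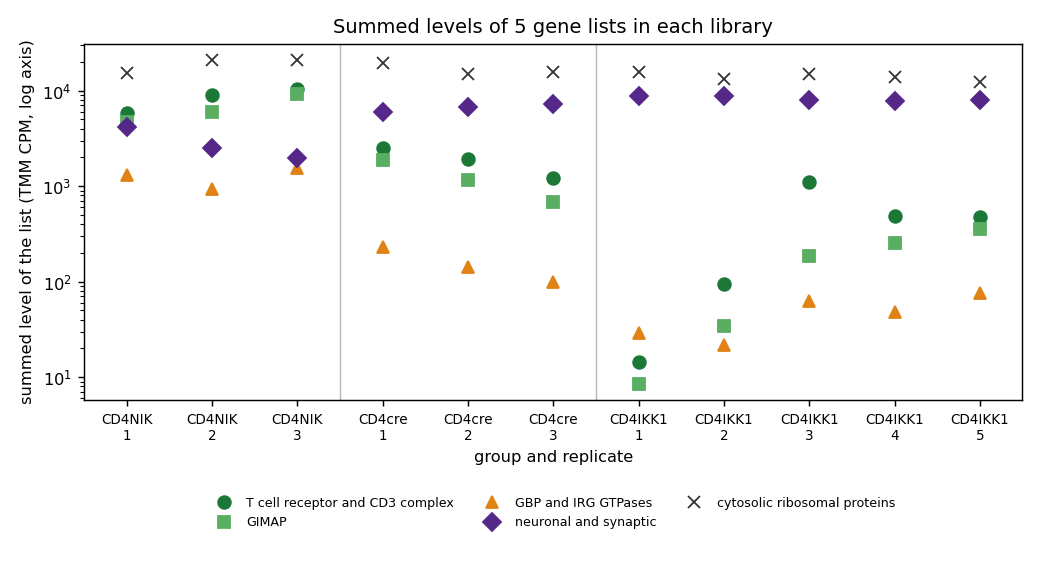
Summed TMM CPM (y axis, log scale) of 5 gene lists in each of the 11 libraries (x axis, by group and replicate), with 1 symbol per list and library. T cell receptor and CD3 genes span 14.5 to 1102 CPM in CD4IKK1 and 5898 to 10312 CPM in CD4NIK libraries, whereas neuronal and synaptic genes are highest in CD4IKK1 libraries and ribosomal protein genes overlap between the groups.

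Th1 genes were lower in libraries labelled CD4IKK1 as a group. Of 15 tested, 12 were lower (median log2 fold change −4.10), and the same number was lower without CD4IKK1 replicates 1 and 2 (median −3.70). Tbx21, the transcription factor T-bet that directs the Th1 program, had 0.775, 2.56, 13, 9.69 and 12.3 CPM in CD4IKK1 and 139.5, 221 and 228 CPM in CD4NIK libraries (log2 fold change −4.67, standard error 0.71, FDR 0.000624). Ifng, the interferon gamma cytokine of Th1 cells, had 0, 1.99, 32.3, 35.6 and 53.2 CPM in CD4IKK1 and 877, 769 and 1069 CPM in CD4NIK libraries (log2 fold change −5.20, standard error 1.28, FDR 0.0095). In both, the highest CD4IKK1 library was far below the lowest CD4NIK library. Cxcr3, a chemokine receptor of Th1 cells, had 0.0646, 0.523, 40.4, 10.7 and 7.12 CPM in CD4IKK1 and 427, 622 and 682 CPM in CD4NIK libraries (log2 fold change −5.61, standard error 1.30, FDR 0.00701). The tissue-homing receptor Cxcr6 (−6.52, FDR 0.00151), the signal transducer Stat4 (−4.72, FDR 0.00631) and the transcription factor Runx3 (at least 17.9-fold, since all CD4IKK1 libraries were at or under the limit of 3 counts) were lower too. Il18rap, Hlx and Tnf did not pass.

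Th17 genes were lower too, several of them at low levels. Of 18 tested, 13 were lower (median log2 fold change −2.94), and 12 without CD4IKK1 replicates 1 and 2 (median −2.73). Il17a, the signature cytokine of Th17 cells, was at 0, 0, 1.13, 0.0497 and 0.676 CPM in CD4IKK1 and at 12, 36 and 20.3 CPM in CD4NIK libraries (log2 fold change −5.90, standard error 1.13, FDR 0.00161). Of the 5 CD4IKK1 libraries, 3 had 0 or 1 count of Il17a, so its fold change rests in part on the prior count of the fit. Il23r, the receptor chain through which Th17 cells are maintained, was at or under 3 counts in every CD4IKK1 library and at 20, 3.29 and 4.87 CPM in CD4NIK libraries, at least 57.6-fold lower. It was also near this limit in CD4cre libraries (0 to 0.146 CPM). Ccr6, a chemokine receptor of Th17 cells, was at 0, 0, 3, 0.0497 and 0 CPM in CD4IKK1 and 5.9, 21.1 and 34.6 CPM in CD4NIK libraries (log2 fold change −5.07, FDR 0.0348). CD4IKK1 replicate 3 was set apart from the other 4, and the call of Ccr6 was lost without CD4IKK1 replicates 1 and 2 (FDR 0.0637) and without any one of CD4IKK1 replicates 2, 4 and 5, CD4NIK replicates 2 and 3 and CD4cre replicate 3 (FDR 0.052 to 0.106). Rora and Maf, transcription factors found in Th17 and other T cells, were lower by 3.00 (FDR 5.89e-05) and 2.88 (FDR 7.2e-05) on the log2 scale. Il17f, Il22, Il1r1, Irf4 and Il17re did not pass.

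Genes of Th2, regulatory and naive T cells were lower as well. Of 8 Th2 genes tested, 7 were lower (median log2 fold change −4.03), 5 without CD4IKK1 replicates 1 and 2 and 4 without CD4NIK replicate 3. Gata3, the Th2 transcription factor, had 0.711, 1.31, 9.16, 12.4 and 18.7 CPM in CD4IKK1 and 97, 157 and 155 CPM in CD4NIK libraries (log2 fold change −4.003, FDR 0.00473). Of 14 regulatory T cell genes, 12 were lower (median −3.82), and 11 without CD4IKK1 replicates 1 and 2 (median −3.35). Foxp3, which defines regulatory T cells, had 0, 2.93, 0.792, 3.48 and 1.35 CPM in CD4IKK1 and 8.11, 51.6 and 42.7 CPM in CD4NIK libraries (log2 fold change −4.30, FDR 0.00294). Il2ra, the interleukin 2 receptor alpha chain CD25 of regulatory and activated T cells, had 1.36, 0.209, 1.87, 0.795 and 0.766 CPM in CD4IKK1 and 19.4, 33.2 and 43.1 CPM in CD4NIK libraries (log2 fold change −4.997, standard error 0.54, FDR 7.4e-05). The CD4IKK1 libraries were all at or under 2 CPM and did not approach the CD4NIK ones. The checkpoint receptor Ctla4 (−5.61, FDR 0.0014) and the costimulator Icos (−4.33, FDR 0.014) were lower as well. Of 14 genes of naive and central memory T cells, 12 were lower (median −3.60), and 12 without CD4IKK1 replicates 1 and 2 (median −2.95). Lef1, a transcription factor of resting T cells, had 0, 0.733, 0.565, 7.16 and 11.4 CPM in CD4IKK1 and 186, 145 and 319 CPM in CD4NIK libraries (log2 fold change −5.75, FDR 0.00403). The lymph node homing receptor Ccr7 (−4.28, FDR 0.027) and the interleukin 7 receptor Il7r (−3.90, FDR 0.0184) were lower. The calls of Ccr7 and Il7r were lost without CD4NIK replicate 1 (FDR 0.0562 and 0.0557) or 3 (FDR 0.0892 and 0.0591), and that of Ccr7 also without CD4NIK replicate 2 (FDR 0.054).

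NFκB genes were lower as well, with list medians nearer to 0 than those of the T cell receptor genes. Of 17 genes of the non-canonical route tested, 9 were lower and none higher (median log2 fold change −2.10), and 11 were lower without CD4IKK1 replicates 1 and 2 (median −2.19). Nfkb2, the p100 precursor on which the route ends, had 2.07, 14.4, 49, 29.1 and 18 CPM in CD4IKK1 and 89.2, 229 and 158 CPM in CD4NIK libraries (log2 fold change −2.82, standard error 0.70, FDR 0.00869). Relb, its partner, had 7.75, 13.8, 46.9, 19.6 and 7.52 CPM in CD4IKK1 and 88.6, 127 and 123 CPM in CD4NIK libraries (log2 fold change −2.56, standard error 0.57, FDR 0.00402). The groups did not overlap in either gene, and CD4IKK1 replicate 3, the one with the most T cell receptor counts in its group, was the highest of its group in both. Among the adaptors that keep NIK unstable, Traf2 was lower by 3.26 (FDR 0.00064), Birc2 by 1.19 (FDR 0.000454) and Birc3 by 2.42 (FDR 0.00169) on the log2 scale. Traf3, which binds NIK directly, had 17.7, 22.3, 6.28, 5.02 and 1.13 CPM in CD4IKK1 and 18.4, 27.2 and 31.6 CPM in CD4NIK libraries. It did not pass with all libraries (log2 fold change −1.30, FDR 0.171) but was lower without CD4IKK1 replicates 1 and 2 (−2.63, FDR 0.011), which were the highest of their group. Ltb, a ligand that starts the route, had 0.194, 28.2, 592, 115 and 39.6 CPM in CD4IKK1 and 978, 2248 and 2313 CPM in CD4NIK libraries and did not pass (log2 fold change −3.57, FDR 0.0674), but passed without CD4IKK1 replicate 1 (−3.25, FDR 0.0177) or 3 (−5.34, FDR 0.00935). Tnfrsf1b, the TNF receptor TNFR2, was listed at or near 0 in all 8 libraries and was not tested. The receptors Ltbr, Cd40, Tnfrsf13c and Tnfrsf11a, all under 10 CPM, did not pass.

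Genes of the canonical route and its inhibitors differed in the same direction. Of 18 tested, 13 were lower (median log2 fold change −2.70), and 14 without CD4IKK1 replicates 1 and 2 (median −2.34). Rela had 3.68, 5.97, 14.8, 9.59 and 24.9 CPM in CD4IKK1 and 133, 143 and 154 CPM in CD4NIK libraries (log2 fold change −3.60, standard error 0.48, FDR 0.000236). Nfkb1 was lower by 2.92 (FDR 0.000455), Rel by 3.00 (FDR 0.00143) and Ikbkb by 2.24 (FDR 0.000309) on the log2 scale. Ikbkg, at 24, 13.4, 24.8, 21.3 and 14.6 CPM in CD4IKK1 and 32.1, 6.64 and 26.3 CPM in CD4NIK libraries, gave a log2 fold change of −0.14 (FDR 0.84) whose sign turned under other settings. Among inhibitors that NFκB itself induces, Nfkbia had 82.6, 134, 782, 463 and 255 CPM in CD4IKK1 and 2018, 4467 and 3576 CPM in CD4NIK libraries (log2 fold change −3.29, FDR 0.00312). Tnfaip3, the enzyme A20 that ends the signal, was lower by 4.06 (FDR 0.00208) and Bcl3, a nuclear partner of p50 and p52, by 4.25 (FDR 0.00695) on the log2 scale. Of the 9 genes that the study combines in an NFκB score, 7 were lower (median −2.56), all but Chuk and Ikbkg. When library sizes were scaled to T cell markers (described below), the median of these 9 genes became 3.20, below the median of all genes on that scale (6.67).

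**Figure D3:**
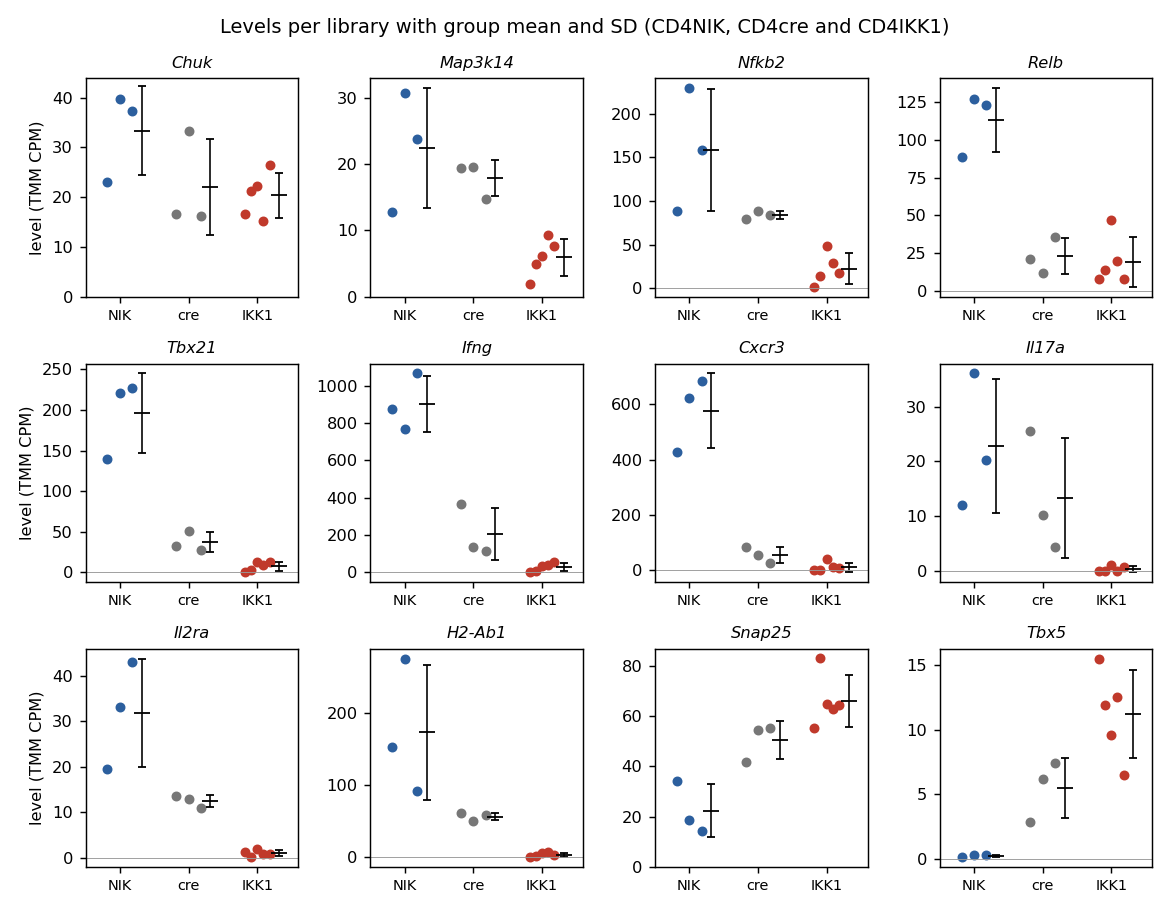
Levels of 12 genes in TMM CPM (y axes) in the libraries of each group (x axes), with 1 point per library, the group mean as a horizontal bar and the SD as an error bar (n = 3 CD4NIK, 3 CD4cre and 5 CD4IKK1). Only Chuk overlaps between CD4NIK and CD4IKK1, and Snap25 and Tbx5 are higher in CD4IKK1 while the other 9 are lower.

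The promoters of NFκB genes were examined for the κB motif, the sequence that NFκB dimers bind, because several of these genes are known to be induced by NFκB. Sequences are from RefSeq on GRCm38.p6, on the strand of the gene, written 5′ to 3′ with the matches to the motif in capitals, and each window was taken from within the 250 bases before the start of the gene. The examples are genes whose levels are described here, Nfkb2, Rel, Nfkbia and Ltb of the routes above and Il2ra of activated T cells.
Nfkb2: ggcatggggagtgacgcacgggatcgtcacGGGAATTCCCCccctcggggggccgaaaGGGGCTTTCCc
Rel: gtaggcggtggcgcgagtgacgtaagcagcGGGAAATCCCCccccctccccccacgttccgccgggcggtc
Nfkbia: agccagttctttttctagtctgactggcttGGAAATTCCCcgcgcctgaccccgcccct
Ltb: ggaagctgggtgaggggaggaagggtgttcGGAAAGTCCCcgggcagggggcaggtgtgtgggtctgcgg
Il2ra: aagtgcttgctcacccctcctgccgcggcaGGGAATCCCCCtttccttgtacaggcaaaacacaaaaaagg
The windows lie at chr19:46304668-46304736 (Nfkb2, plus strand), chr11:23771021-23771091 (Rel, minus strand), chr12:55492648-55492706 (Nfkbia, minus strand), chr17:35194390-35194459 (Ltb, plus strand) and chr2:11642561-11642631 (Il2ra, plus strand). The first match began 39 bases before the start of Nfkb2, 92 before Rel, 29 before Nfkbia, 87 before Ltb and 201 before Il2ra. On both strands, the motif was present in 2382 of 32851 promoters of the table (7.25%). The other shares count genes, with a match in any promoter of a gene. The motif was present in 11 of the 30 members of both NFκB lists that the table holds (36.7%). Among genes with a promoter in the table, it was present for 280 of 2289 lower genes (12.2%), 203 of 1852 higher genes (11%) and 787 of 8116 genes tested but not called (9.7%). A match is a description of these letters and does not show a site in use.

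Costimulatory, inhibitory and cytotoxic genes of T cells were lower in libraries labelled CD4IKK1. Of 17 TNF superfamily members tested, 12 were lower (median log2 fold change −3.90), and 12 without CD4IKK1 replicates 1 and 2 (median −3.33). Tnfrsf4, the costimulatory receptor OX40, had 0.194, 19.2, 121, 19 and 11.2 CPM in CD4IKK1 and 398, 681 and 451 CPM in CD4NIK libraries (log2 fold change −3.90, FDR 0.0221), a call lost without CD4NIK replicate 2 (FDR 0.0647) or 3 (FDR 0.0577). Fasl, the death ligand, was lower by 5.38 on the log2 scale (FDR 0.00789). Of 11 inhibitory and nectin-family receptors, 8 were lower (median −4.69), and 7 without CD4IKK1 replicates 1 and 2, but 5 without CD4NIK replicate 1 or replicate 3. Pdcd1, the checkpoint receptor PD-1, had 0, 2.09, 6.05, 5.42 and 2.34 CPM in CD4IKK1 and 253, 196 and 174 CPM in CD4NIK libraries (log2 fold change −6.02, FDR 0.000404). Lag3, another checkpoint receptor, was at most 1.28 CPM in all 8 libraries and did not pass (−0.31, FDR 0.82). Of 14 cytotoxic, NK and CD8 genes, 13 were lower (median −4.37), and 13 without CD4IKK1 replicates 1 and 2 (median −3.81). The protease Gzmb had 0, 0.419, 18.6, 7.26 and 4.15 CPM in CD4IKK1 and 332, 162 and 201 CPM in CD4NIK libraries (log2 fold change −5.25, FDR 0.00688). Nkg7, a granule protein of killer and Th1 cells, was lower by 4.54 (FDR 0.0237), a call lost without CD4IKK1 replicate 4 or any 1 of the CD4NIK replicates (FDR 0.0509 to 0.0633). Cd8a, which defines CD8 T cells, was at most 0.792 CPM in CD4IKK1 libraries and at 0.497, 5.9 and 0.565 CPM in CD4NIK libraries and did not pass (FDR 0.0855), but passed without CD4IKK1 replicate 3 (FDR 0.0292).

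Receptor chains for cytokines and their signal transducers were also lower, with a pair of exceptions among the SOCS inhibitors. Of 18 cytokine receptor chains, 14 were lower (median log2 fold change −2.99), and 13 without CD4IKK1 replicates 1 and 2. Il2rg, the chain shared by several cytokine receptors, had 0.388, 0.209, 4.98, 12 and 20.9 CPM in CD4IKK1 and 141, 433 and 216 CPM in CD4NIK libraries (log2 fold change −5.09, FDR 0.00664). Il2rb was lower by 4.23 (FDR 0.00258) and Ifngr1, the interferon gamma receptor, by 4.12 (FDR 0.000455) on the log2 scale. Of 19 JAK, STAT and SOCS genes, 16 were lower and 2 higher (median −2.54), and Jak3, the kinase bound to Il2rg, was lower by 2.92 (FDR 0.00675). The higher ones were Socs5 and Socs7. Socs5 had 108, 110.4, 97.4, 100.3 and 95.5 CPM in CD4IKK1 and 46.2, 39.1 and 35.2 CPM in CD4NIK libraries (log2 fold change 1.35, standard error 0.17, FDR 0.000147), and Socs7 gave 1.38 (FDR 0.000249). Both were close to the median of all higher genes, and without CD4IKK1 replicates 1 and 2 there were 14 lower and 2 higher.

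Among genes of migration, chemokines and interferon responses, those that passed were lower. Of 18 genes of migration and integrins, 15 were lower (median log2 fold change −3.81), and 15 without CD4IKK1 replicates 1 and 2. Itgal, the alpha chain of the integrin LFA-1, had 0.646, 2.98, 36, 16.6 and 14.5 CPM in CD4IKK1 and 140.2, 240.0 and 213 CPM in CD4NIK libraries (log2 fold change −3.80, FDR 0.00872). Itgb1 was found in only 1 CD4IKK1 library, replicate 1 at 0.969 CPM, against 4.86, 5.56 and 4.02 CPM in CD4NIK libraries, and it did not pass (FDR 0.0535) but passed without that replicate (FDR 0.00848) or without any 1 of the CD4cre libraries (FDR 0.0378 to 0.0481). Of 15 chemokine ligands, 8 were lower (median −2.76), against 18.5% of all genes tested. Only 5, 4 or 3 were lower without CD4NIK replicate 1, 2 or 3 (2858 of 17485, 2548 of 17444 or 2396 of 17495 over all genes). Ccl5, a T cell chemokine, had 1.1, 31.5, 108, 11.9 and 7.43 CPM in CD4IKK1 and 228, 341 and 248 CPM in CD4NIK libraries (log2 fold change −3.09, FDR 0.0367). CD4IKK1 replicate 3 came closest to the CD4NIK libraries, and the call was lost without any 1 of 9 libraries, all but CD4IKK1 replicates 1 and 3 (FDR 0.055 to 0.0989). Of 22 interferon-stimulated genes, 18 were lower (median −3.68, or −3.32 with genes at the detection limit set to their bound), and 13 without CD4IKK1 replicates 1 and 2. Isg15, a ubiquitin-like protein induced by interferon, had 0.258, 2.25, 20.4, 2.39 and 4.24 CPM in CD4IKK1 and 15.4, 45.7 and 45.7 CPM in CD4NIK libraries (log2 fold change −2.59, FDR 0.0432). These overlapped, and the call was lost without CD4IKK1 replicates 1 and 2 (FDR 0.0591) and without any 1 of 8 libraries, all but CD4IKK1 replicates 1 and 3 and CD4NIK replicate 1 (FDR 0.0617 to 0.121). The guanylate-binding and immunity-related GTPases, which interferon gamma induces, had the lowest median of all lists (−5.00), with 13 of 14 lower and 13 without CD4IKK1 replicates 1 and 2. Gbp2 had 1.68, 0.576, 4.18, 2.68 and 1.58 CPM in CD4IKK1 and 69.5, 61.5 and 76.4 CPM in CD4NIK libraries (log2 fold change −5.01, standard error 0.51, FDR 5.76e-05). The GIMAP family, GTPases of lymphocytes, was lower in 8 of 8 members (median −4.95), and in 8 without CD4IKK1 replicates 1 and 2. Gimap4 had 0.388, 0.157, 17.7, 23.5 and 40.1 CPM in CD4IKK1 and 1056, 1616 and 3039 CPM in CD4NIK libraries (log2 fold change −6.86, FDR 0.00399).

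**Figure D4:**
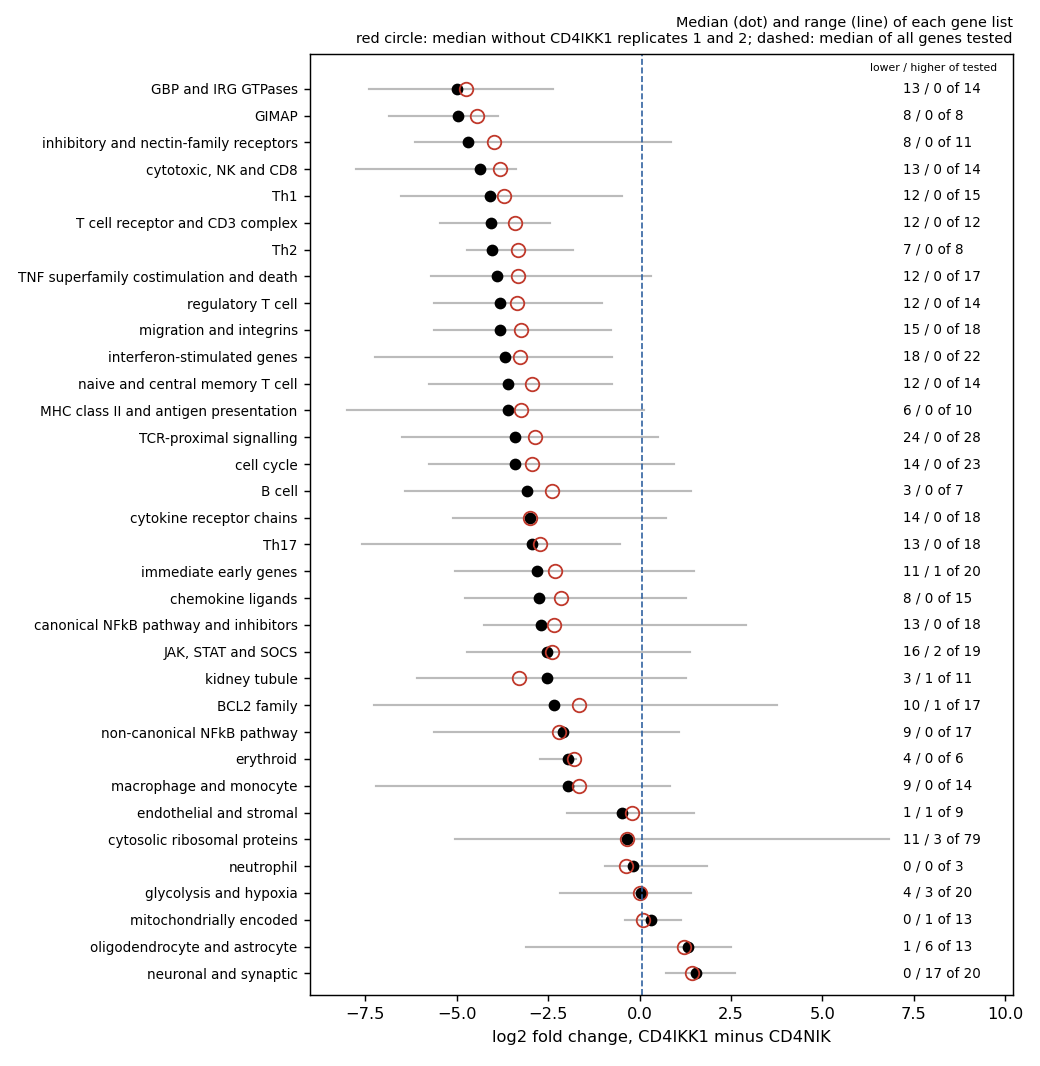
Log2 fold change of CD4IKK1 relative to CD4NIK (x axis) for 34 gene lists (y axis), with the median as a black dot, the range over tested members as a grey line, the median without CD4IKK1 replicates 1 and 2 as a red circle and the counts of lower and higher members at the right. The lists of T cell and NFκB genes lie between −4.95 and −2.10, and the neuronal and the oligodendrocyte and astrocyte lists are the only ones with a median over 1.

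Among genes of proliferation, survival and activation, most that passed were lower. Of 23 cell cycle genes tested, 14 were lower (median log2 fold change −3.40), and 13 without CD4IKK1 replicates 1 and 2. Mki67, which marks dividing cells, had 1.87, 5.91, 33.6, 0.248 and 1.49 CPM in CD4IKK1 and 33, 56.3 and 26 CPM in CD4NIK libraries. CD4IKK1 replicate 3 lay within the CD4NIK range, and Mki67 did not pass with it (log2 fold change −2.16, FDR 0.144) but was lower without it (−4.01, FDR 0.00154). Of 17 genes of the BCL2 family, 10 were lower and 1 higher (median −2.35), and 9 and 1 without CD4IKK1 replicates 1 and 2 (median −1.65). Bcl2, which protects T cells from death, had 20, 27, 31.1, 105 and 84.8 CPM in CD4IKK1 and 567, 375 and 519 CPM in CD4NIK libraries (log2 fold change −3.18, FDR 0.00126). Hrk, a death-promoting member known from neurons, was the higher one, with 75, 68.1, 58.2, 65.3 and 64.4 CPM in CD4IKK1 and 29.1, 19.8 and 14 CPM in CD4NIK libraries (log2 fold change 1.66, FDR 0.000234). Of 20 immediate early genes, which respond quickly to signals and also to the handling of cells, 11 were lower and 1 higher (median −2.79), and 2 were higher without CD4IKK1 replicate 2 or CD4NIK replicate 1. Junb had 102, 155, 642, 822 and 666 CPM in CD4IKK1 and 3943, 8636 and 8704 CPM in CD4NIK libraries (log2 fold change −3.89, FDR 0.00181), and Egr3 was the higher one (1.49, FDR 0.000625).

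Among genes that every cell uses, some passed in each direction. Of 20 genes of glycolysis and hypoxia, 4 were lower and 3 higher (median log2 fold change 0.05), shares near those over all genes, and 5 were higher without CD4NIK replicate 1. Their summed level did not overlap between the groups, at 9297 to 10077 CPM in CD4IKK1 and 5395 to 6878 CPM in CD4NIK libraries. Gapdh had 2518, 2308, 2167, 2101 and 2146 CPM in CD4IKK1 and 1616, 1794 and 1631 CPM in CD4NIK libraries, which did not overlap but differed by less than 2-fold (log2 fold change 0.42, FDR 0.00471). Ldha, which makes lactate, had 1.81, 8.27, 2.54, 4.72 and 0.946 CPM in CD4IKK1 and 16.7, 14.7 and 11 CPM in CD4NIK libraries and was lower (−1.95, FDR 0.0161). Pgk1, a glycolytic enzyme of all cells, was listed at 1.47 CPM or less in all 8 libraries, so that a value near 0 in these files need not mean an absent transcript. Of 79 cytosolic ribosomal protein genes, 11 were lower and 3 higher (18.5% and 14.8% over all genes, median −0.34, and 1 higher without CD4IKK1 replicates 1 and 2), all uncertain singly because reads shared with their many pseudogenes were divided by the counting. On the FDR alone, with no fold threshold, 26 of them were lower and 10 higher. Of 13 mitochondrially encoded genes, 1 was higher (median 0.33) and none without CD4IKK1 replicate 1.

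Markers of other immune cells were lower together with the T cell genes. Of 10 genes of MHC class II and antigen presentation, 6 were lower (median log2 fold change −3.60), and 6 without CD4IKK1 replicates 1 and 2. H2-Ab1, a class II chain of antigen-presenting cells, had 0, 1.05, 4.92, 7.06 and 2.39 CPM in CD4IKK1 and 152, 275 and 90.8 CPM in CD4NIK libraries (log2 fold change −5.80, standard error 0.93, FDR 0.000937). Cd74, the invariant chain, was lower by 5.69 on the log2 scale (FDR 0.000564). The summed class II list ran from 113 to 155 CPM in CD4IKK1 and from 358 to 756 CPM in CD4NIK libraries. Of 14 macrophage and monocyte markers tested, 9 were lower (median −1.94), and 6 without CD4IKK1 replicates 1 and 2. Lyz2, the lysozyme of macrophages and neutrophils, had 3.88, 0.942, 4.13, 23.5 and 7.16 CPM in CD4IKK1 and 328, 271 and 174 CPM in CD4NIK libraries (log2 fold change −5.02, FDR 0.00171). Csf1r, the receptor that defines macrophages, had 9.89, 14, 16.7, 5.81 and 11.8 CPM in CD4IKK1 and 26.1, 21 and 14.6 CPM in CD4NIK libraries and did not pass (−0.82, FDR 0.0756). The summed list ran from 119 to 303 CPM in CD4IKK1 and from 1193 to 1402 CPM in CD4NIK libraries. Of 7 B cell markers tested, 3 were lower (median −3.08, sums 6.27 to 27.3 and 201 to 676 CPM), and 2 without CD4IKK1 replicates 1 and 2. Without any 1 of the CD4cre libraries, 5 of the 12 listed B cell markers were lower. More genes passed the expression filter in those fits, so the 5 need not be among the 7. Of 11 kidney tubule genes, 3 were lower and 1 higher (18.5% and 14.8% over all genes), but the lower ones numbered 1 without CD4NIK replicate 3 and 5 without CD4NIK replicate 1, and the higher one was lost without CD4NIK replicate 2 (sums 168 to 188 and 105 to 201 CPM). Of 6 erythroid genes, 4 were lower, and none without CD4NIK replicate 3, whose sum of 8185 CPM was the highest of all libraries (hemoglobin genes share reads with near-identical copies and are uncertain singly). Of 9 endothelial and stromal genes, 1 was lower and 1 higher (18.5% and 14.8% over all genes), and 2 were lower without CD4IKK1 replicates 1 and 2. Of 3 neutrophil genes tested none passed, with or without these replicates. The part of these cells in the T cell differences was not tested.

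Genes of neurons were the group that stood out on the higher side. Of 20 neuronal and synaptic genes, 17 were higher in libraries labelled CD4IKK1 (median log2 fold change 1.53, against 14.8% of all genes called higher), and 16 without CD4IKK1 replicates 1 and 2 (median 1.45). Their summed level was 8880, 8741, 7974, 7727 and 8076 CPM in CD4IKK1, 4125, 2501 and 1953 CPM in CD4NIK and 6001, 6678 and 7203 CPM in CD4cre libraries. The order of the groups was thus the reverse of that for T cell receptor RNA, and such transcripts were present in every library although the labels name sorted renal T cells. Snap25, a protein of synaptic vesicle release, had 55.2, 83.4, 64.7, 62.8 and 64.7 CPM in CD4IKK1 and 34.4, 18.7 and 14.2 CPM in CD4NIK libraries (log2 fold change 1.56, standard error 0.28, FDR 0.000826). Stmn2, a regulator of microtubules in neurons, had 1234, 999.95, 1013, 928 and 977 CPM in CD4IKK1 and 497, 315 and 271 CPM in CD4NIK libraries (log2 fold change 1.51, standard error 0.19, FDR 0.000132). The dendritic protein Map2 had 90.1, 111, 72, 63.9 and 70.2 CPM in CD4IKK1 and 55.6, 17.3 and 24.8 CPM in CD4NIK libraries (log2 fold change 1.32, FDR 0.00836). Values were even across the list, since 15 of 20 log2 fold changes lay between 1.2 and 1.8, and in 19 of 20 genes CD4NIK replicate 1, the CD4NIK library with the fewest T cell receptor counts, was the highest of its group, as it was for 43% of all genes tested and 82.6% of all higher genes. Celsr3, an adhesion receptor of neurons, had 7.04, 15.3, 1.24, 18.9 and 16.8 CPM in CD4IKK1 and 0.993, 0.246 and 4.59 CPM in CD4NIK libraries (log2 fold change 2.62, FDR 0.0443). These values overlapped, and its call was lost without CD4IKK1 replicates 1 and 2 (FDR 0.0816) and without any 1 of 8 libraries, all but CD4IKK1 replicates 1 and 3 and CD4NIK replicate 3 (FDR 0.0565 to 0.136). Of 13 oligodendrocyte and astrocyte genes, 6 were higher and 1 lower (median 1.33). Mbp, a myelin protein, had 355, 521, 476, 545 and 539 CPM in CD4IKK1 and 298, 126 and 114 CPM in CD4NIK libraries (log2 fold change 1.44, FDR 0.00225). Cnp, a myelin enzyme that other cells also use, was the lower one, with 28.6, 28.9, 33.3, 28.5 and 38.9 CPM in CD4IKK1 and 270.3, 258 and 287 CPM in CD4NIK libraries (−3.10, standard error 0.20, FDR 9.45e-06). The source of these transcripts was not tested.

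Because T cell RNA differed between the groups, 26 T cell genes were also expressed per 1000 counts of the T cell receptor constant regions and compared between the 5 and 3 libraries by exact two-sided permutation. In 8 of the 26 the groups did not overlap, in each case with the lower ratios in CD4IKK1 (Cd3e, Cxcr3, Cxcr6, Il17a, Il23r, Ctla4, Gzmb and Gimap4), and in none were they higher. Over all 16546 genes tested, this ratio was lower in every CD4IKK1 library than in every CD4NIK library for 0.852% and higher for 71.9%. The 3 CD4cre libraries were also below every CD4NIK library for Cd3e, Cxcr3, Cxcr6, Il23r and Gimap4. For Il17a they were above every CD4NIK library, and for Ctla4 and Gzmb they overlapped with the CD4NIK libraries. In CD4cre libraries, Cxcr3 had 60.3, 48.8 and 41.1 counts per 1000, Gimap4 198, 130 and 78.6, and Il17a 18.6, 9.23 and 6.85. The smallest p was 0.0179, the lowest that 56 arrangements allow, and none of the 26 had an adjusted p under 0.05 (smallest adjusted p = 0.0774, exact permutation with Benjamini-Hochberg adjustment over 26 genes). CD4IKK1 replicate 1 has only 41 constant-region counts, so its ratios carry a large counting error, and the values without it are given next. Gimap4 had 3.46, 27.4, 89.6 and 157.9 counts per 1000 in CD4IKK1 replicates 2 to 5 and 318, 295 and 477 in CD4NIK libraries. Cxcr3 had 11.5, 62.7, 40.9 and 28 per 1000 in CD4IKK1 replicates 2 to 5 and 129, 113 and 107 in CD4NIK libraries. Both had an exact permutation p of 0.0286 with these 7 libraries, the lowest possible, and an adjusted p of 0.149. Il2ra had 4.61, 2.89, 3.03 and 3.01 per 1000 in CD4IKK1 replicates 2 to 5, 5.86, 6.06 and 6.75 in CD4NIK and 9.8, 11.7 and 17.4 in CD4cre libraries, with the CD4cre libraries above these 7 (exact permutation p = 0.0571 between CD4IKK1 and CD4NIK, adjusted p = 0.149). CD4IKK1 replicate 1 had 512 Il2ra counts per 1000, and with it the direction turned (exact permutation p = 1, mean 105 per 1000 in CD4IKK1 with it and 3.39 without). Among the 26 genes, Cd28 was the other one whose direction turned with this library. Tbx21 had 56.5, 20.2, 37 and 48.6 per 1000 in CD4IKK1 replicates 2 to 5 and 42.1, 40.3 and 35.7 in CD4NIK libraries, and Icos, Gata3 and Cd28 overlapped in the same way. Without CD4IKK1 replicates 1 and 2, 10 of 26 genes did not overlap, all with lower ratios in CD4IKK1 (against 1.69% of all genes lower and 74.6% higher), but 3 against 3 libraries cannot give an exact p under 0.1.

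**Figure D5:**
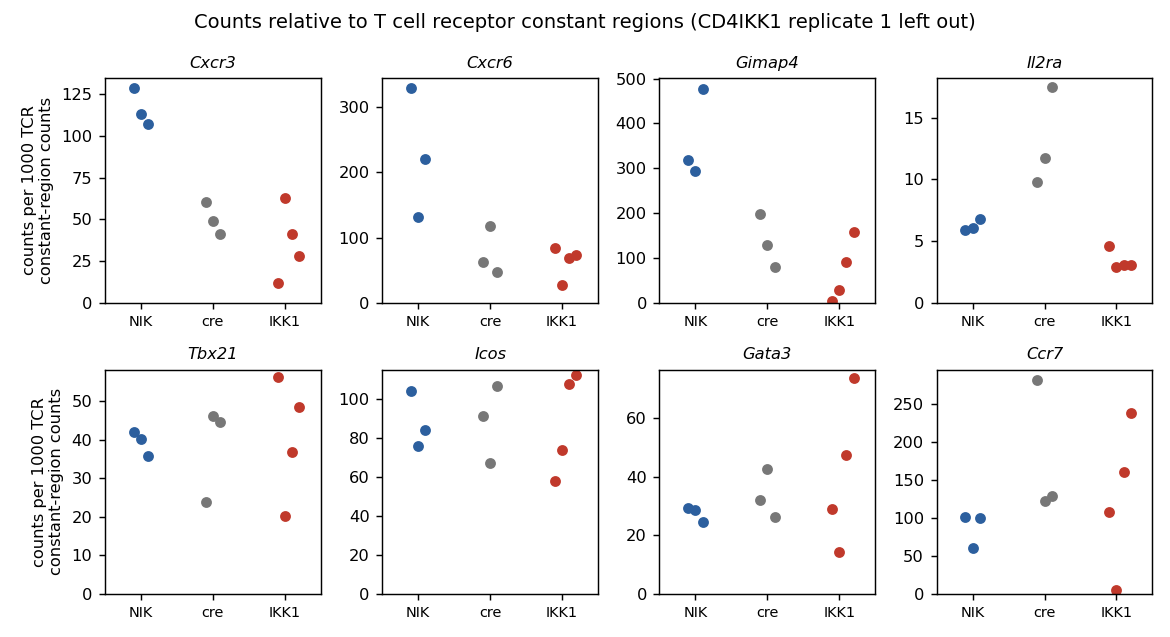
Counts of 8 genes per 1000 counts of T cell receptor constant regions (y axes) in each library by group (x axes), with 1 point per library and without CD4IKK1 replicate 1. Cxcr3, Cxcr6, Gimap4 and Il2ra are lower in each CD4IKK1 library than in each CD4NIK library, whereas Tbx21, Icos, Gata3 and Ccr7 overlap.

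A scale set by T cell markers moves the log2 fold changes of all genes upward, so the directions on it follow from the scale. When library sizes were scaled to the mean log2 level of 15 Pan T markers, the median of all genes moved to 6.67 on the log2 scale, and 61 genes (0.369%) were lower and 14120 (85.3%) higher. Of genes named above, Gimap4 (log2 fold change −2.89, FDR 0.0438) and Il23r (−4.24, FDR 0.0431) stayed lower and Cxcr6 did not pass (−2.55, FDR 0.0745). Trac and Tbx21 were at −1.09 (FDR 0.44) and −0.06 (FDR 0.972). On this scale 9 of 17 genes of the non-canonical route, 9 of 18 of the canonical route and 4 of the 9 genes of the NFκB score were higher and none were lower. The NFκB genes Nfkb2, Relb and Rela gave 1.97, 3.20 and 1.85, of which none passed (FDR 0.215, 0.0571 and 0.245). Chuk (5.89, FDR 0.0029) and Map3k14 (3.75, FDR 0.042) were higher on this scale.

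On the lower side, the largest single differences were in genes with few or no counts in CD4IKK1 libraries. As said of Pgk1 above, a value near 0 in these files need not mean an absent transcript. The bounds and fold changes of such genes therefore describe the estimated counts. Among the 12 largest on the lower side, Sms-ps, a processed pseudogene whose reads could be shared with its parent gene and which is therefore uncertain, had 0 counts in all CD4IKK1 libraries and 33.7, 11.6 and 28.1 CPM in CD4NIK libraries (at least 150.2-fold lower). Timp2, an inhibitor of metalloproteinases, had 0 counts in all CD4IKK1 libraries and 21.7, 26.6 and 20.8 CPM in CD4NIK libraries (at least 141-fold). Cdc6, which loads the replication helicase on DNA, had 0 counts in all CD4IKK1 libraries and 12.1, 11.8 and 12.7 CPM in CD4NIK libraries (at least 74.8-fold). Pvrig, an inhibitory receptor of T and NK cells, had 0 counts in all CD4IKK1 libraries and 5.57, 19.6 and 24.2 CPM in CD4NIK libraries (at least 101-fold). Trdc, the constant region of the T cell receptor delta chain, was at or under the detection limit in all CD4IKK1 libraries and at 5.24, 21.9 and 10.9 CPM in CD4NIK libraries (at least 78-fold). Of these 5, 4 had 0 counts in every CD4IKK1 library. Bounds for Ddx19b, Akr1c12, Zfp683 (the tissue-residency factor Hobit) and Tmem106a were at least 111-, 62.7-, 171- and 68.7-fold. Pdcd6ip (ALIX, a protein of membrane scission) had 0, 0.366, 0.17, 0 and 0.225 CPM in CD4IKK1 and 162, 80.4 and 111 CPM in CD4NIK libraries (log2 fold change −9.49, FDR 0.000508). Gfi1, a transcriptional repressor of blood cells, and the interferon-inducible Ifi209 had log2 fold changes of −8.43 (FDR 0.00264) and −8.35 (FDR 0.00194). Without CD4IKK1 replicates 1 and 2, the muscle enolase Eno3 joined this group. It had 8.79, 0, 0.0565, 0 and 0 CPM in CD4IKK1 and 13.8, 5.06 and 12.6 CPM in CD4NIK libraries, so that replicate 1 alone kept it from passing (log2 fold change −2.58, FDR 0.282 with all libraries and −9.09, FDR 0.000382 without that replicate).

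On the higher side, Rapgef1, an exchange factor for the GTPase Rap1, was at 38.2, 31.2, 23.5, 18.7 and 0.631 CPM in CD4IKK1 libraries and at or under the detection limit in all CD4NIK libraries (at least 137-fold higher, FDR 0.0174). CD4IKK1 replicate 5 and CD4cre replicate 1 were near 0 as well, and the call was lost without any 1 of the 3 CD4NIK libraries (FDR 0.0703 to 0.0769). Tbx5, a transcription factor best known from the heart, had 15.5, 11.9, 9.61, 12.6 and 6.49 CPM in CD4IKK1 and 0.166, 0.295 and 0.282 CPM in CD4NIK libraries (log2 fold change 5.47, standard error 0.60, FDR 8.04e-05). Srp68, a subunit of the signal recognition particle, had 20.9, 28.9, 7.52, 55.2 and 17.1 CPM in CD4IKK1 and 0.11, 1.23 and 0.141 CPM in CD4NIK libraries (log2 fold change 5.64, FDR 0.000501). The largest differences were chosen among genes whose groups did not overlap. On this side the limit on values near 0 applies to the CD4NIK libraries. Idh1, the cytosolic isocitrate dehydrogenase, had 16, 30.2, 14.7, 33.1 and 39 CPM in CD4IKK1 and 0.938, 1.57 and 2.12 CPM in CD4NIK libraries (log2 fold change 4.11, FDR 0.00809). The transcription factor Ets2 had 48.8, 12, 40.4, 35.1 and 36.9 CPM in CD4IKK1 and 0.938, 4.18 and 4.16 CPM in CD4NIK libraries (log2 fold change 3.48, FDR 0.0147), a call lost without CD4NIK replicate 1 (FDR 0.0568) or 3 (FDR 0.0518). Atg13, which starts autophagy, had 48.4, 52.7, 53.1, 54.4 and 55.1 CPM in CD4IKK1 and 4.63, 9.1 and 2.33 CPM in CD4NIK libraries (log2 fold change 3.29, standard error 0.42, FDR 0.000143). The other 6 of the 12 largest, Ppfibp1, Etv1, Crat, Ccdc88a, Pphln1 and Calu, had log2 fold changes from 3.21 (Calu) to 4.55 (Ppfibp1). Sox9 (2.73, FDR 0.00229) and Uhmk1 (2.85, FDR 0.00398) were added by the same rule after scaling to T cell markers. Rnf185, a ubiquitin ligase, had 0, 0, 0, 13.1 and 10.1 CPM in CD4IKK1 and 1.21, 0.983 and 0 CPM in CD4NIK libraries and did not pass (log2 fold change 2.64, FDR 0.409). It was absent from the counts of CD4IKK1 replicates 1 to 3 and of all CD4cre libraries.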

How the data were processed

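RNA of renal CD4+ T cells from 11 mice was sequenced after SMARTer amplification, with 1 library per mouse. After trimming with Trimmomatic, the authors quantified mouse transcripts with kallisto and deposited estimated counts for 35814 gene symbols, which are not normalized. Because kallisto divides a read among the transcripts it matches, 35.3% to 41.8% of the values per library are fractional. The study's methods name GRCm39 and the submitters' processing notes mm10 as the build, and the annotation and the kallisto version are not given in the sources used here. Coordinates are from GENCODE vM39 on GRCm39, which holds 33508 (93.6%) of the symbols.

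The estimated counts were rounded. Libraries were grouped by the labels, and all 55 pairs were checked for identical values, of which none were found. Genes that passed edgeR's expression filter entered a quasi-likelihood fit of all 11 libraries with TMM factors and robust dispersions (edgeR 4.0.16 under R 4.3.3). A gene was called when its Benjamini-Hochberg FDR was under 0.05 and it differed more than 2-fold. The F statistic gave the standard errors. Nothing but the mouse separates replicates within a group in the labels. Single ratios were compared by exact two-sided permutation (scipy 1.17.1).

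The genes named are the 9 of the NFκB score, 10 further genes listed by name (among them Ifng, Tbx21, Il17a, Celsr3 and Rnf185), the 12 largest differences in each direction among called genes whose groups do not overlap and whose higher group has a mean of at least 10 CPM (10 in each direction without CD4IKK1 replicates 1 and 2 and after scaling to Pan T markers), and members of the lists. The members and lists were chosen with earlier results of these data known, and list counts are descriptions. The alternatives were DESeq2 (1.42.0), other normalization factors, filters, fold thresholds and sets of libraries, thinned counts, the replicate number as a block, and the Pan T markers as a scale or a covariate. Reads were not analysed here, and a few genes that the rule or the lists contain are not reported by name.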

Additional observations from a re-analysis of the deposited data

Results flagged for a closer look

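In 147 values (the levels of named genes and the summed levels of lists, on a log2 scale with a pseudocount of 1), the 5 CD4IKK1 libraries were searched for 1 library whose gap to the nearest other, as a share of the group's range, exceeds 0.71. Such a gap was found in 12 values, where chance gives about 1 in 20 for normally distributed values. A single count against 0 in the other libraries, as for Akr1c12 and Trdc, gives a gap share of 1 by construction. The 3 CD4NIK libraries are too few for this search.

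CD4IKK1 replicate 3, which had the most T cell receptor counts of its group, stood apart on the high side in 4 values. These were Ccr6 (gap share 0.965, 3.00 CPM), Il23r (0.719, 0.17 CPM), Akr1c12 (1, 0.0566 CPM) and the summed level of the cell cycle list (0.722, 248 CPM). Akr1c12 and Il23r were at or under 3 counts in that library too.

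CD4IKK1 replicate 1, with the fewest T cell receptor counts, was alone in having Eno3 (0.976, 8.79 CPM) and Itgb1 (1, 0.969 CPM) at more than 1 count. CD4IKK1 replicate 5 was high for Gfi1 (0.729, 0.225 CPM), Ifi209 (0.792, 0.676 CPM) and Trdc (1, 0.0451 CPM) and low for Rapgef1 (0.784, 0.631 CPM). CD4IKK1 replicate 2 was low for Birc2 (0.729, 35.1 CPM) and Ets2 (0.76, 11.99 CPM).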

How the results depend on the processing

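Over 27 alternatives, the counts of lower and higher genes changed by more than 1.5 times only when T cell markers entered the fit or when a more than 4-fold difference was asked for (1928 lower and 263 higher). Scaled to the Pan T markers, 61 genes were lower and 14120 higher, and 172 lower and 11834 higher genes had groups that did not overlap. With the Pan T level as a covariate, 524 were lower and 577 higher. Leaving out 1 library at a time gave 2396 to 3080 lower and 1720 to 2698 higher genes. Without a CD4cre or CD4NIK library, 17387 to 17495 genes passed the expression filter, against 16546. List counts in those fits can thus include members not tested in the main fit. DESeq2 on 11 libraries gave 3595 lower and 2587 higher genes, and upper-quartile factors 2575 and 3213. Replicate numbers are shared between the groups, but they do not pair the mice: the deviations of the 3 same-numbered pairs correlated at 0.11, −0.03 and 0.03, and 1 library correlated best with its own number. With the replicate number as a block, 2801 genes were lower and 2193 higher, and 16 of the named genes lost their call, among them Trac, Cxcr3 and Icos. With this block, 7 of 12 T cell receptor and CD3 genes, 8 of 15 Pan T markers and 7 of 14 regulatory T cell genes were lower. A filter of 10 counts in every library, which leaves 10567 genes to test, moved 23 list counts by more than 1.5 times. Under it, 6 T cell receptor and CD3 genes, 2 regulatory T cell genes, 1 inhibitory receptor and 0 cytotoxic genes were lower. Genes under 10 counts in any library are not tested in that setting.

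Of 111 named genes, 7 values outside the Pan T settings changed sign, none of a called gene. Ikbkg gave 0.12 with upper-quartile factors, 0.10 with the block, 0.25 without CD4NIK replicate 1 and 0.01 without CD4NIK replicate 3 (range over single libraries left out −0.58 to 0.25). Pgk1 gave −0.10 with thinned counts and −0.64 without CD4IKK1 replicate 3 (range −0.64 to 0.66), and Rnf185 −6.66 with the block. Scaling to the Pan T markers, which moved the median of all genes to 6.67 and so fixes these signs, turned 45 genes (log2 fold changes): Bcl2 2.42, Birc2 5.51, Birc3 4.07, Ccl5 1.47, Cd3d 0.38, Cd4 0.48, Cd8a 3.27, Chuk 5.89, Cnp 3.52, Csf1r 5.70, Eno3 6.10, Foxp3 0.90, Fyn 4.43, Gata3 0.45, Gbp2 1.23, Ifngr1 1.16, Ikbkb 4.54, Ikbkg 6.69, Il2ra 1.98, Il2rb 0.24, Il7r 0.24, Isg15 1.64, Itgal 0.33, Itgb1 3.93, Jak3 1.54, Junb 1.29, Lag3 6.63, Ldha 4.29, Ltb 0.0058, Lyz2 0.69, Maf 3.77, Map3k14 3.75, Mki67 2.96, Nfkb1 3.10, Nfkb2 1.97, Nfkbia 1.96, Rel 2.64, Rela 1.85, Relb 3.20, Rora 3.11, Tnfaip3 0.68, Tnfrsf4 0.14, Traf2 2.27, Traf3 6.25, Zap70 1.98. The Pan T covariate turned 24: Bcl3 0.29, Ccr6 6.61, Ccr7 1.24, Cd3d 0.46, Cxcr3 0.91, Fasl 0.57, Gzmb 0.12, Icos 1.26, Ifng 0.97, Il17a 2.70, Il7r 0.20, Isg15 1.12, Itgal 0.084, Jak3 0.11, Ltb 2.02, Nfkb2 0.10, Nkg7 0.17, Pvrig 0.28, Tmem106a 1.48, Tnfrsf4 0.031, Trac 0.75, Trbc1 1.22, Trbc2 0.33, Zap70 1.36. Under the scaling, 36 of the 111 genes kept their sign and side of the threshold, and under the covariate 24. Of all 3068 lower genes, the covariate turned 294, and of the 2444 higher ones 3. The mean log2 level of the Pan T markers ran from −0.64 to 5.32 in CD4IKK1 and from 7.74 to 8.38 in CD4NIK libraries. It thus separates the groups, and the fit with this covariate can hardly tell group and T cell level apart. The Pan T markers were themselves lower in 14 of 15 cases (9 without CD4NIK replicate 2 or 3), and the cause of the turns under the covariate was not tested. The depth limits statements on genes under about 0.2 CPM, which are 3 counts.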
